A study of Mus musculus with 12 samples.

Results

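A set of 10 genes active in embryonic stem cells and early embryonic tissue were followed into neuron cultures, to see which were silent and which persisted at day 21. They were the pluripotency genes Pou5f1, Nanog, Zfp42 and Sall4 and the genes Lin28a, Lin28b, Hmga2, Igf2bp1, Igf2bp2 and Igf2bp3, whose products bind RNA or DNA and are known as oncofetal, meaning that they are abundant in the embryo and again in tumours. The 10 genes were chosen by name and matched by symbol to the Ensembl identifiers of the deposited tables, where all 10 were found among 33560 genes with counts. RNA was sequenced from glutamatergic neurons made in culture from mouse embryonic stem cells by a Bibel-type protocol. All libraries are of day 21, so the level of these genes in the starting cells was not measured. Persisted therefore means only detected at day 21. WT neurons and Daam1-MIC_KO neurons, called KO here, which lack a microexon of the actin regulator Daam1, were each given water as vehicle or 10 µM of Y-27632, an inhibitor of the kinase ROCK, for 2 h at day 21. Each of the 4 groups held 3 libraries, 1 from each of 3 labelled cell lines of its genotype, and whether a line is a single clone is not given in the sources used here. The series text speaks of hippocampus from adult mice, whereas every sample label describes cultured neurons, and the sample labels were followed.

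POU5F1 (OCT4) and NANOG are the core transcription factors of the pluripotent state, ZFP42 (REX1) is a marker of its naive form, and SALL4 is a zinc finger factor of the same network. LIN28A and LIN28B bind the precursors of the let-7 microRNAs and block their maturation, while mature let-7 binds the messenger RNAs of Lin28a, Lin28b, Hmga2 and the Igf2bp genes and lowers them, so that each side holds the other down. HMGA2 is a chromatin protein that bends DNA, and the IGF2BP proteins bind and stabilise messenger RNAs such as those of Igf2 and Myc; most of these genes are switched off as neural tissue matures.

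The sequences through which this loop works are shown first, because only some of the 10 genes hold them. All 9 mature let-7 family members matched in the RefSeq table (GRCm38.p6) share 1 seed (bases 2 to 8, in capitals), which is held by 11 of the 1679 mature mouse microRNAs listed there. Of these family members, 3 are printed 5′ to 3′.
let-7a-5p: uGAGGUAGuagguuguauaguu
let-7c-5p: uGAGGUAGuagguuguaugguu
miR-98-5p: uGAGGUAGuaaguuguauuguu

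The perfect complement of that seed, CTACCTC, was searched on the transcript strand of each gene's 3′UTR (GENCODE M21, GRCm38). It was found in 7 of the 10 genes, with 4 matches each in Lin28b, Hmga2 and Igf2bp1, 2 in Lin28a and 1 each in Sall4, Igf2bp2 and Igf2bp3. Pou5f1, Nanog and Zfp42 had 0. Of 21173 genes with a 3′UTR, 10.1% held at least 1 match and 1.29% held 2 or more. Long 3′UTRs hold more matches, so each gene was set beside others whose 3′UTR length was within 1.25-fold of its own. Among 1549 such genes for Lin28b, 25.6% had a match and 0.194% had as many as Lin28b; the share with as many matches was 0.0716% for Hmga2 and 0.155% for Igf2bp1. For Lin28a 2.19% had as many, and for Sall4, Igf2bp2 and Igf2bp3, with 1 match each, the shares lay between 12.1% and 14.5%. For each of the 7 genes 1 match is printed 5′ to 3′ with its upstream bases, where the microRNA's 3′ part would lie; the capitals mark the complement of the seed, and all 7 genes lie on the minus strand.
Lin28a, chr4:134005189-134005211: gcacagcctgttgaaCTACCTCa
Lin28b, chr10:45381022-45381044: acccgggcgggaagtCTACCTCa
Hmga2, chr10:120364224-120364246: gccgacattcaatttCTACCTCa
Igf2bp1, chr11:95961778-95961800: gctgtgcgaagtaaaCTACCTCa
Igf2bp2, chr16:22059473-22059495: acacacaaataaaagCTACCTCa
Igf2bp3, chr6:49086787-49086809: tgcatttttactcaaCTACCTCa
Sall4, chr2:168748940-168748962: agggctttaatttatCTACCTCa

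These are matches of letters, not measured binding, and the poly(A) libraries do not measure mature microRNAs.

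Library totals ran from 23253566 to 35012561 counts. The deletion removes a microexon, and a count over the whole Daam1 gene does not check it. All 10 glutamatergic neuron markers examined were above 3 counts in every library, although the cortical markers Slc17a7, Tbr1, Neurod2 and Neurod6 had median levels of only 0.41, 0.305, 0.08 and 0.385 cRPKM (the deposited values per length and library size, RPKM in a corrected form), against 73.2 for Slc17a6. The glutamatergic list also holds genes found in neurons in general, such as Tubb3. GABAergic markers were also present throughout. On the first principal component of all tested genes other than the 10, which held 78.6% of the variance, 3 libraries stood apart: KO inhibitor line 3 at 146, WT vehicle line 2 at 55.1 and WT inhibitor line 3 at 48.4, while the other 9 lay between -57.2 and -0.99. These 3 libraries come from 3 groups and 3 cell lines, and results are given with and without them.

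None of the 10 genes was silent in the strict sense used here, at most 3 counts in all 12 libraries. That class held 43.4% of all 33560 genes. Above 3 counts in all 12 libraries were 7 genes (Sall4, Lin28a, Lin28b, Hmga2, Igf2bp1, Igf2bp2 and Igf2bp3), a class that held 43.1% of all genes, and 3 genes passed 3 counts in some libraries (Pou5f1, Nanog and Zfp42). The 7 genes detected throughout were the 7 with a let-7 match in the 3′UTR. The 3′UTRs of Pou5f1, Nanog and Zfp42 have 221, 1078 and 533 bases. Among genes of like length, 1.36%, 8.64% and 3.84% hold a match. The share of all genes with a match that were detected throughout was not counted, and a link between match and detection was not tested. With 10 counts as the limit, Pou5f1 and Nanog were silent in all 12 libraries and the other 8 genes were not.

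Pou5f1 (ENSMUSG00000024406, chr17:35506018-35510772) gave 3, 9 and 0 counts in WT vehicle lines 1 to 3, 2, 0 and 0 in KO vehicle, 6, 2 and 9 in WT inhibitor, and 3, 0 and 2 in KO inhibitor. It passed 3 counts in 3 libraries, all WT, and was at 0 in 4. Nanog (ENSMUSG00000012396, chr6:122707489-122714633) gave 3, 3 and 0 counts in WT vehicle, 4, 0 and 2 in KO vehicle, 0, 3 and 7 in WT inhibitor, and 2, 1 and 9 in KO inhibitor. The groups overlapped for both genes. At 9 counts or fewer in any library neither passed the filter for testing; tested without a filter, neither was called in any comparison, and Pou5f1 had a log2 difference of -1.99 ± 0.81 (SE) for KO against WT over lines, with an unadjusted p of 0.0425 and an adjusted p of 0.995 by edgeR, where 2.49% of all genes had an unadjusted p below 0.05. Zero counts allow up to 3 counts, or 0.0857 to 0.129 CPM (counts relative to the library size) depending on the library, and this limit covers counting error only. Some of their sequence is shared with other genes. Of the 50-base windows of Pou5f1 transcripts 10.1% also occur in transcripts of other genes, of which 221 windows lie in Gm19553, an antisense gene at the same locus listed at 0 counts in every library, and 13 in the pseudogene Gm5712. For Nanog the share is 4.61%, spread over 55 genes, with 60 windows in Nanog-ps1. How the authors assigned such reads is not given in the sources used here.

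Zfp42 (ENSMUSG00000051176, chr8:43295063-43306980) lay between these and the genes detected throughout. It gave 5, 36 and 2 counts in WT vehicle, 9, 0 and 3 in KO vehicle, 12, 13 and 30 in WT inhibitor, and 9, 2 and 128 in KO inhibitor. The KO inhibitor library of line 3 held 128 of its 249 counts over all libraries, and the 3 libraries that stood apart were its 3 highest, at 0.991 to 4.07 CPM against 0 to 0.487 in the other 9. A pseudogene copy shares 8.52% of its 50-base windows.

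Sall4 (ENSMUSG00000027547, chr2:168748332-168767943) persisted at a low level. Its values were 3.99, 24.5 and 1.53 CPM in WT vehicle, 6.04, 0.649 and 1.76 in KO vehicle, 7.56, 5.73 and 20.8 in WT inhibitor, and 7.84, 0.751 and 53.4 in KO inhibitor. The highest library was thus 82.3-fold above the lowest, and every group held both a value below 6 and, except KO vehicle with its highest at 6.04, a value above 20. All 4 groups overlapped. The opposite-strand transcript Gm14261 reached at most 17 counts, against at most 1679 for Sall4.

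Lin28a (ENSMUSG00000050966, chr4:134003330-134018841) followed the same libraries. It measured 3.37, 32.6 and 1.40 CPM in WT vehicle, 6.22, 0.519 and 1.25 in KO vehicle, 6.80, 6.10 and 17.0 in WT inhibitor, and 10.5, 0.578 and 53.2 in KO inhibitor. The highest value was 103-fold above the lowest, with the KO inhibitor library of line 3 at the top and both KO libraries of line 2 at the bottom.

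Lin28b (ENSMUSG00000063804, chr10:45376620-45486395), its paralog, behaved otherwise. It measured 22.5, 11.1 and 18.1 CPM in WT vehicle, 24.8, 23.2 and 13.7 in KO vehicle, 19.7, 17.3 and 18.3 in WT inhibitor, and 14.9, 16.8 and 6.01 in KO inhibitor. Its range was 4.13-fold, the narrowest of the 7 genes detected throughout, and its lowest library, KO inhibitor line 3, was the highest for Lin28a. Per length, Lin28b exceeded Lin28a in 8 of 12 libraries; the ratio of their cRPKM values ran from 28.8 in the KO vehicle library of line 2 to 0.0728 in the KO inhibitor library of line 3. Lin28a was the higher of the pair in the 3 libraries that stood apart and in the KO inhibitor library of line 1, where the ratio was 0.915.

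**Figure D1:**
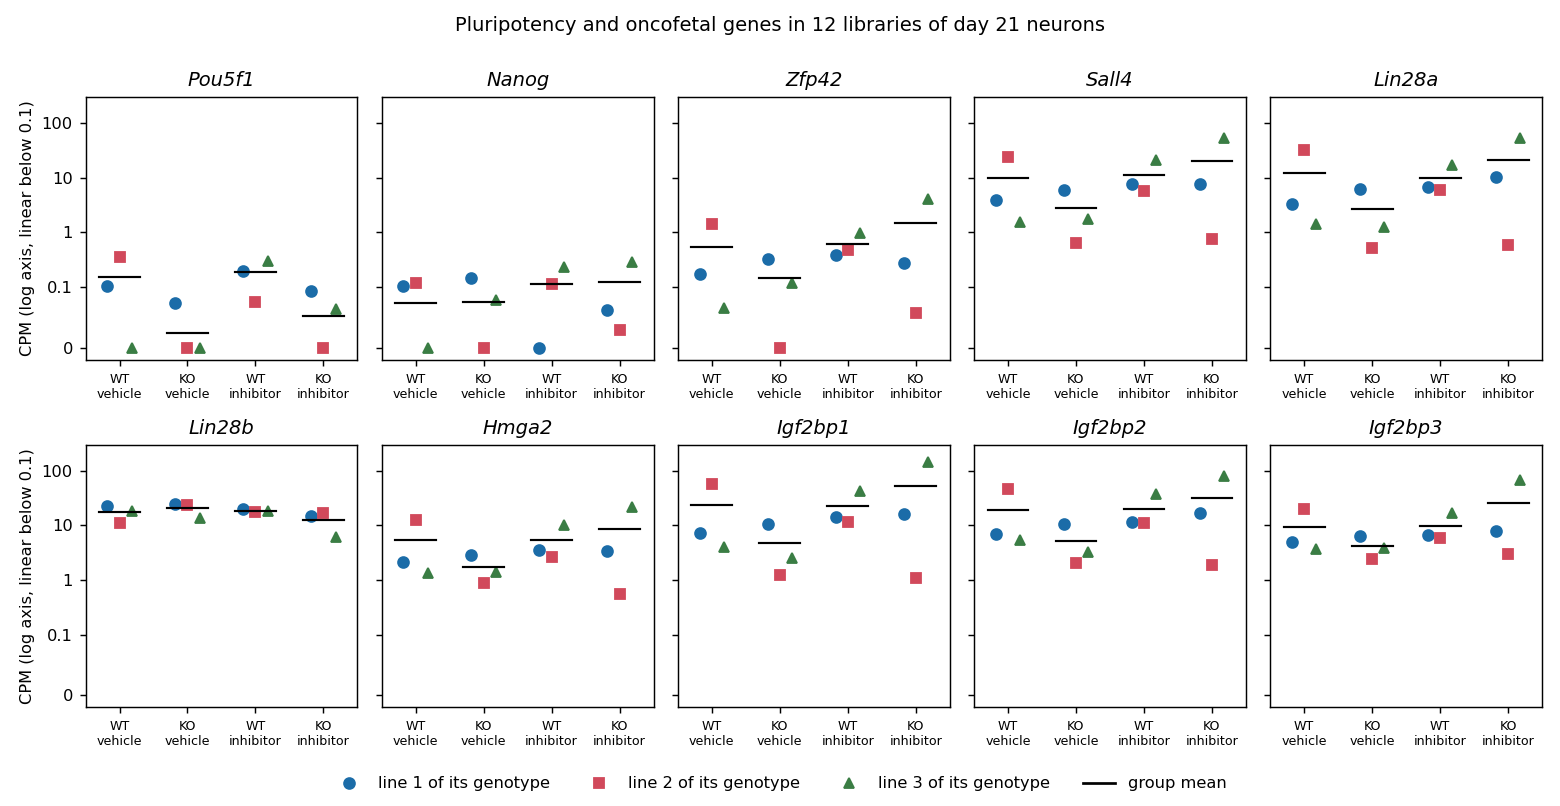
CPM of the 10 genes in each of the 12 libraries (y axis, logarithmic above 0.1 CPM) by group (x axis), with colour and shape for the cell line and a bar for the group mean. Pou5f1 and Nanog lie near 0, Lin28b stays between 6.01 and 24.8 CPM, and the remaining 7 genes are highest in the line 2 library of WT vehicle and the line 3 libraries of both inhibitor groups.

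Hmga2 (ENSMUSG00000056758, chr10:120361275-120476469) had the lowest median level of the 7 genes detected throughout, 0.73 cRPKM. It measured 2.13, 12.4 and 1.34 CPM in WT vehicle, 2.82, 0.865 and 1.41 in KO vehicle, 3.55, 2.62 and 10.3 in WT inhibitor, and 3.40, 0.549 and 21.4 in KO inhibitor. The 3 libraries that stood apart were again its 3 highest, at 10.3 to 21.4 CPM against 0.549 to 3.55 in the other 9.

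Igf2bp1 (ENSMUSG00000013415, chr11:95957163-96005940) had the widest range of the family that binds Igf2 messenger RNA. It measured 7.36, 58.3 and 4.01 CPM in WT vehicle, 10.4, 1.21 and 2.51 in KO vehicle, 13.9, 11.7 and 41.9 in WT inhibitor, and 16.4, 1.10 and 143 in KO inhibitor, a 130-fold range. Igf2bp2 (ENSMUSG00000033581, chr16:22059009-22163299) measured 6.81, 45.8 and 5.29 CPM in WT vehicle, 10.5, 2.08 and 3.25 in KO vehicle, 11.3, 11.1 and 37.9 in WT inhibitor, and 16.6, 1.85 and 78.6 in KO inhibitor. For both genes the same 3 libraries were highest and both KO libraries of line 2 were lowest. Per length, Igf2bp2 was the highest of the 3 paralogs in 9 libraries and Igf2bp3 in 3, both KO libraries of line 2 and the KO vehicle library of line 3.

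Igf2bp3 (ENSMUSG00000029814, chr6:49085223-49214957) measured 5.02, 19.5 and 3.65 CPM in WT vehicle, 6.36, 2.42 and 3.92 in KO vehicle, 6.77, 5.84 and 16.8 in WT inhibitor, and 7.75, 3.01 and 67.1 in KO inhibitor. Its range of 27.7-fold was the narrowest of the IGF2BP genes. The value is uncertain where it is low, because 18.1% of its 50-base windows also occur in transcripts of Malsu1, a mitochondrial ribosome factor on the opposite strand. Whether counting used the strand is not given in the sources used here. Malsu1 itself had 263 to 572 counts, against 56 to 2109 for Igf2bp3.

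Ordered by median cRPKM over the 12 libraries, a scale per length on which genes can be compared, the order was Lin28b (3.3), Igf2bp2 (2.755), Lin28a (1.75), Igf2bp3 (1.39), Igf2bp1 (1.305), Sall4 (1.15), Hmga2 (0.73), Zfp42 (0.175), Pou5f1 (0.055) and Nanog (0.045). The ranges of all 9 neighbouring pairs overlapped. Within libraries, Igf2bp2 was above Lin28a in 12 of 12 and Hmga2 above Zfp42 in 12 of 12, whereas Lin28a and Igf2bp3, Igf2bp3 and Igf2bp1, and Pou5f1 and Nanog each had the nominally higher gene on top in 6 of 12. For scale, the let-7 processing gene Drosha had a median of 32.59 cRPKM and the pan-neuronal Tubb3 385.47.

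**Figure D2:**
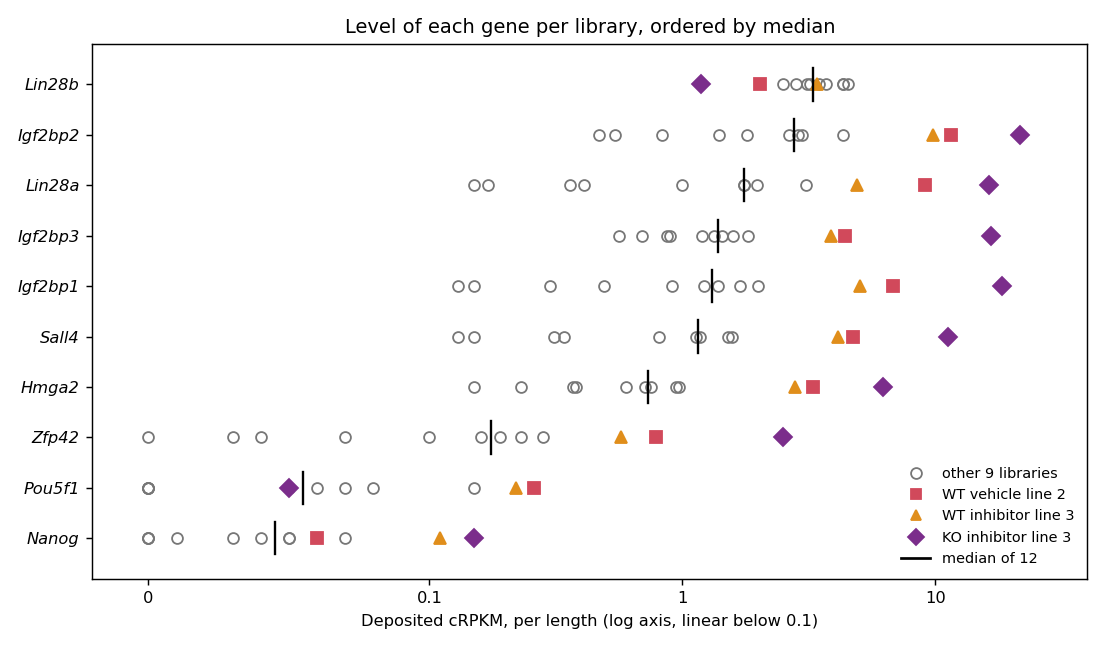
Deposited cRPKM per library (x axis, logarithmic above 0.1) for the 10 genes (y axis, ordered by median, black bars). Filled symbols are the 3 libraries that stood apart and open circles the other 9; the filled symbols lie to the right of the circles for 7 genes and 2 of the 3 lie to the left for Lin28b.

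The pattern over libraries can be given as 2 counts. The 3 libraries that stood apart were the 3 highest for 7 of the 8 genes that passed the filter for testing (Zfp42, Sall4, Lin28a, Hmga2, Igf2bp1, Igf2bp2 and Igf2bp3), an arrangement held by 22.7% of the 15443 tested genes. Among the other 9 libraries values were not uniform either: both KO libraries of line 2 were the 2 lowest for the same 7 genes, an arrangement held by 7.37% of tested genes. Lin28b had neither arrangement, and 2 of the 3 libraries that stood apart were among its 3 lowest. These libraries were picked out by other genes of the same samples, so the counts describe the libraries and are not a test.

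Summed markers of several other cell types were also higher in the same libraries, though not those of every type examined. Beside the counts of single markers, 22.7% of all tested genes had these 3 libraries as their 3 highest. Summed over 7 markers, proliferating cell genes reached 254 to 618 CPM in the 3 libraries that stood apart and 8.38 to 126 CPM in the other 9, with all 7 markers highest in those 3. By group, that sum ran from 19.5 to 339 CPM in WT vehicle, 9.47 to 80.9 in KO vehicle, 76.4 to 254 in WT inhibitor and 8.38 to 618 in KO inhibitor, and its 2 lowest values were the KO libraries of line 2. Primitive endoderm markers were 7 genes, led by Dab2, Gata4 and Gata6, used here as markers of the yolk sac lineage. They summed to 428 to 1299 CPM against 25.3 to 182, and 6 of 7 were highest in the 3 libraries. The other, Amn, had 2 of the 3 libraries among its 3 lowest. The group ranges of the sum were 46.0 to 463 CPM in WT vehicle, 25.3 to 118 in KO vehicle, 118 to 428 in WT inhibitor and 26.2 to 1299 in KO inhibitor. Neural progenitor markers (8 genes) summed to 60.5 to 277 CPM against 19.2 to 42.5, with 3 of 8 highest in those libraries. Mesenchymal markers (9 genes) summed to 587 to 1355 CPM against 42.6 to 423, with 2 of 9 highest there, near the share over all tested genes. These sums ran from 136 to 1355 in WT vehicle, 42.6 to 128 in KO vehicle, 333 to 901 in WT inhibitor and 94.5 to 587 in KO inhibitor. This list also differed by genotype. Over lines its median log2 difference (KO minus WT) was -2.70, beside 0.045 over all genes. For 7 of 9 every KO line lay below every WT line, as for 760 of 16090 tested genes. By edgeR 0 of 9 were called (lowest adjusted p 0.101), and by DESeq2 6 of 9, against 0.541% of all genes.

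Glutamatergic markers summed to 531 to 1941 CPM in the 3 libraries and 2143 to 2723 in the other 9, the reverse order, and GABAergic markers to 211 to 456 against 464 to 648. The low ends, 531 and 211 CPM, were both KO inhibitor line 3. WT vehicle line 2 and WT inhibitor line 3 had 1941 and 1879 CPM of glutamatergic and 453 and 456 CPM of GABAergic markers. The glutamatergic list includes genes found in neurons in general, so its sum is not specific to glutamatergic neurons. By median CPM it held 640 for Tubb3, 596 for Map2 and 305 for Slc17a6. The 3 libraries were the lowest for 3 of 10 glutamatergic and 1 of 5 GABAergic markers, against 13.3% of all tested genes. No marker of the progenitor, proliferating, primitive endoderm or mesenchymal lists was at or under 3 counts in all libraries. Endothelial markers (3 genes) summed to 18.2 to 33.3 CPM against 1.65 to 6.74, with 2 of 3 highest in the 3 libraries, against 22.7% of all tested genes. Astrocyte markers (5 genes) summed to 1024 CPM in KO inhibitor line 3 and to 183 to 345 CPM in the remaining libraries, with 3 of 5 highest in the 3 libraries. Microglia markers (3 genes) summed to at least 4.95 CPM in the 3 libraries and 0.346 to 2.51 in the other 9; Csf1r, a receptor of myeloid cells, was above 3 counts in all 12 libraries and highest in the 3 (1.2 to 3.58 against 0.07 to 0.59 cRPKM), Aif1 was above it in 9 libraries, and Cx3cr1 in 0. The part of other cell types in the levels of the 10 genes was not tested. In these bulk libraries, fewer cells of a type and less RNA per cell cannot be told apart.

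**Figure D3:**
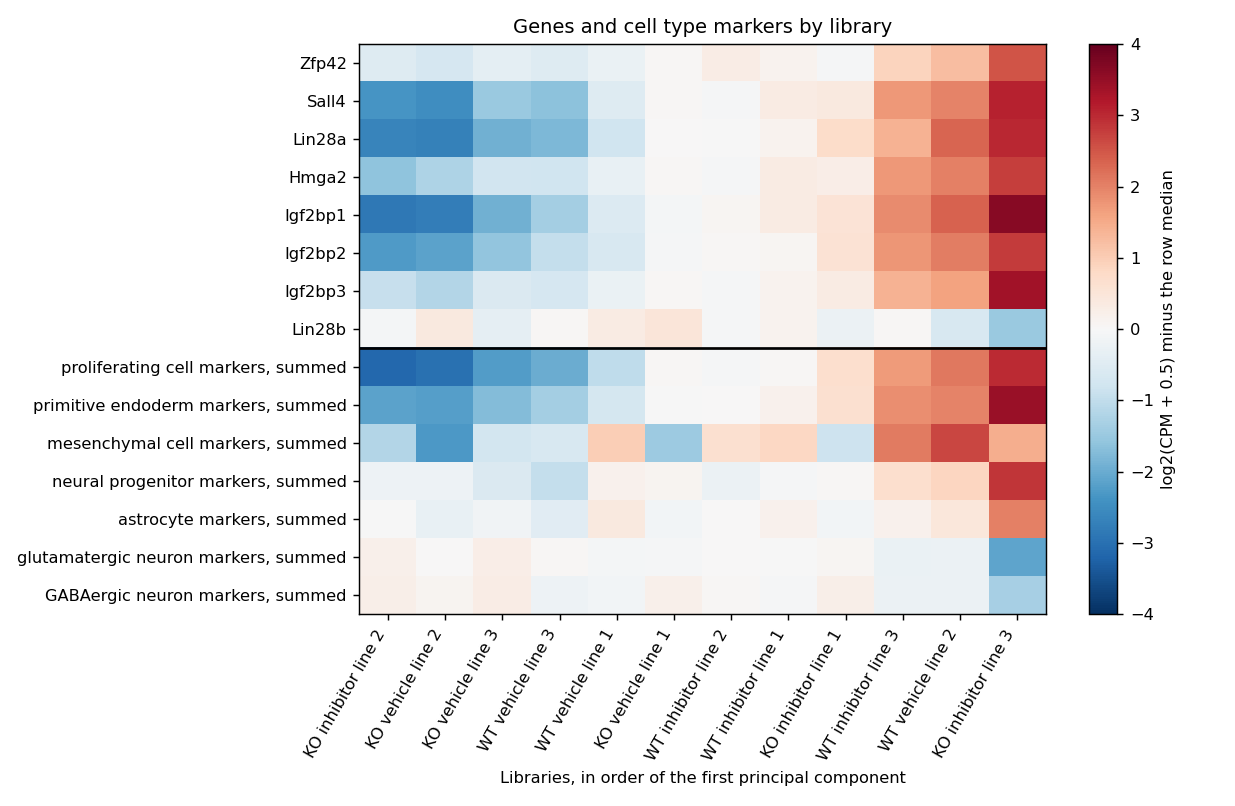
Level of the 8 tested genes and summed marker lists (rows) in the 12 libraries (columns, ordered by the first principal component), as log2(CPM + 0.5) minus the row median. Red lies above the row median and blue below it. Rows for proliferating cell and primitive endoderm markers turn from blue to red towards the right with 7 of the genes. Lin28b and the neuronal markers are blue in the KO inhibitor library of line 3.

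KO and WT neurons were compared first in vehicle, to see whether loss of the microexon goes with a different level of these genes. In vehicle, KO means were lower than WT means for Sall4 (2.82 ± 2.84 against 10.0 ± 12.6 CPM), Lin28a (2.66 ± 3.10 against 12.5 ± 17.5), Hmga2 (1.70 ± 1.01 against 5.28 ± 6.16) and the Igf2bp genes, but the SDs (n = 3 libraries) were of the order of the means. Lin28b had 20.6 ± 6.02 CPM in KO and 17.3 ± 5.73 in WT. By edgeR's quasi-likelihood test with Benjamini-Hochberg adjustment, 0 of the 8 tested genes passed an adjusted p of 0.05, and the background was 0% of 15443 genes. At an unadjusted p below 0.05 there were 0 of 8, against 1.99% of all genes, and DESeq2 called 0 of 8, against 0.0712%. The log2 differences (KO minus WT) were negative for 7 genes, from -2.30 ± 1.55 (SE) for Igf2bp1 to -1.15 ± 1.06 for Igf2bp3, and 0.25 ± 0.39 for Lin28b, with a median of -1.80 beside -0.010 over all genes and an edgeR adjusted p of 0.999 for each. The groups overlapped for all 8 genes, while 7.62% of all tested genes had every KO library above every WT library and 4.9% the reverse. With WT vehicle line 2 left out, the median was -0.011, and the differences of Zfp42, Sall4 and Lin28a were 0.36, 0.023 and 0.15.

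In inhibitor, the same comparison had the opposite sign for most genes. The median log2 difference was 0.98 (7 positive, 1 negative), beside -0.00050 over all genes, and 0 of 8 genes passed edgeR's test (0% of all genes), 0 of 8 at an unadjusted p below 0.05 (3.5% of all genes) and 0 of 8 by DESeq2 (0.117% of all genes). Lin28b was the exception in direction. Its 3 KO libraries (6.01 to 16.8 CPM) all lay below its 3 WT libraries (17.3 to 19.7 CPM), an arrangement in this direction held by 7.03% of all tested genes, and it did not pass (edgeR adjusted p = 0.856). With KO inhibitor line 3 left out, the median of the 8 genes was -1.25. Summing both libraries of each line and comparing 3 KO with 3 WT lines, 0 of 8 genes passed by edgeR (0% of 16090 genes), 0 of 8 at an unadjusted p below 0.05 (2.65%) and 0 of 8 by DESeq2 (0.541%). The median of that comparison was 0.26 with all lines and -1.38 without KO line 3.

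ROCK inhibition was compared within each genotype to ask whether the 2 h exposure goes with a change in these genes. In WT neurons the median log2 difference (inhibitor minus vehicle) was 0.061, and 0 of 8 genes passed by edgeR (0% of all genes), at an unadjusted p below 0.05 (0.304%) or by DESeq2 (0%). Line by line, all 7 genes other than Lin28b were higher with inhibitor in lines 1 and 3 and lower in line 2, so that the direction was not shared by the 3 lines; Sall4 for example moved from 3.99 to 7.56, from 24.5 to 5.73 and from 1.53 to 20.8 CPM. With WT vehicle line 2 left out, the median was 1.82, and with WT inhibitor line 3 left out it was -0.68.

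In KO neurons the differences were larger but rested on line 3. The log2 difference was 3.50 ± 1.62 (SE) for Igf2bp1, 3.22 ± 1.61 for Zfp42, 3.00 ± 1.59 for Lin28a, 2.87 ± 1.49 for Sall4, 2.61 ± 1.31 for Igf2bp2, 2.61 ± 1.11 for Igf2bp3 and 2.31 ± 1.26 for Hmga2, and -0.71 ± 0.39 for Lin28b, each with an edgeR adjusted p of 0.474. None of the 8 passed by edgeR (0% of all genes) or by DESeq2 (0%). At an unadjusted p below 0.05, 1 gene passed by edgeR, Igf2bp3, against 7.05% of all genes, and by DESeq2 7 genes did, all but Lin28b, against 14% of all genes. These counts moved with the fit. With the cell line as a block, which pairs the libraries of a line, Lin28b passed instead (log2 difference -0.79 ± 0.23, unadjusted p = 0.0138, edgeR adjusted p = 0.640), against 1.66% of all genes, and Igf2bp3 had an unadjusted p of 0.250. Sall4 went from 1.76 to 53.4 CPM in line 3, from 6.04 to 7.84 in line 1 and from 0.649 to 0.751 in line 2; Lin28a and Igf2bp3 were likewise higher with inhibitor in all 3 KO lines, and Zfp42, Hmga2, Igf2bp1 and Igf2bp2 in 2 of 3. With KO inhibitor line 3 left out, the median over the 8 genes moved from 2.74 to 0.47 and 0 of 8 had an unadjusted p below 0.05; with KO inhibitor line 2 left out it was 3.29 and 8 of 8 did, against 26.1% of all genes. Lin28b was lower with inhibitor in all 3 KO lines (24.8 to 14.9, 23.2 to 16.8 and 13.7 to 6.01 CPM) and higher in 2 of 3 WT lines. The share of all genes that moved in 1 direction in all 3 KO lines was not counted.

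The interaction of genotype and inhibitor asked whether both genotypes respond alike. Again 0 of 8 genes passed by edgeR (0% of all genes), 0 of 8 at an unadjusted p below 0.05 (1.2%) and 0 of 8 by DESeq2 (0%), with a median of 2.62. With the cell line as a block the median was 1.03 and Lin28b had an unadjusted p of 0.0271 (edgeR adjusted p = 0.929), against 1.08% of all genes with an unadjusted p below 0.05. The comparisons share groups, so their signs are not independent of each other. Without the 3 libraries that stood apart, that median was -0.30, and the medians of the genotype differences were -0.0032 in vehicle and -0.39 in inhibitor.

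**Figure D4:**
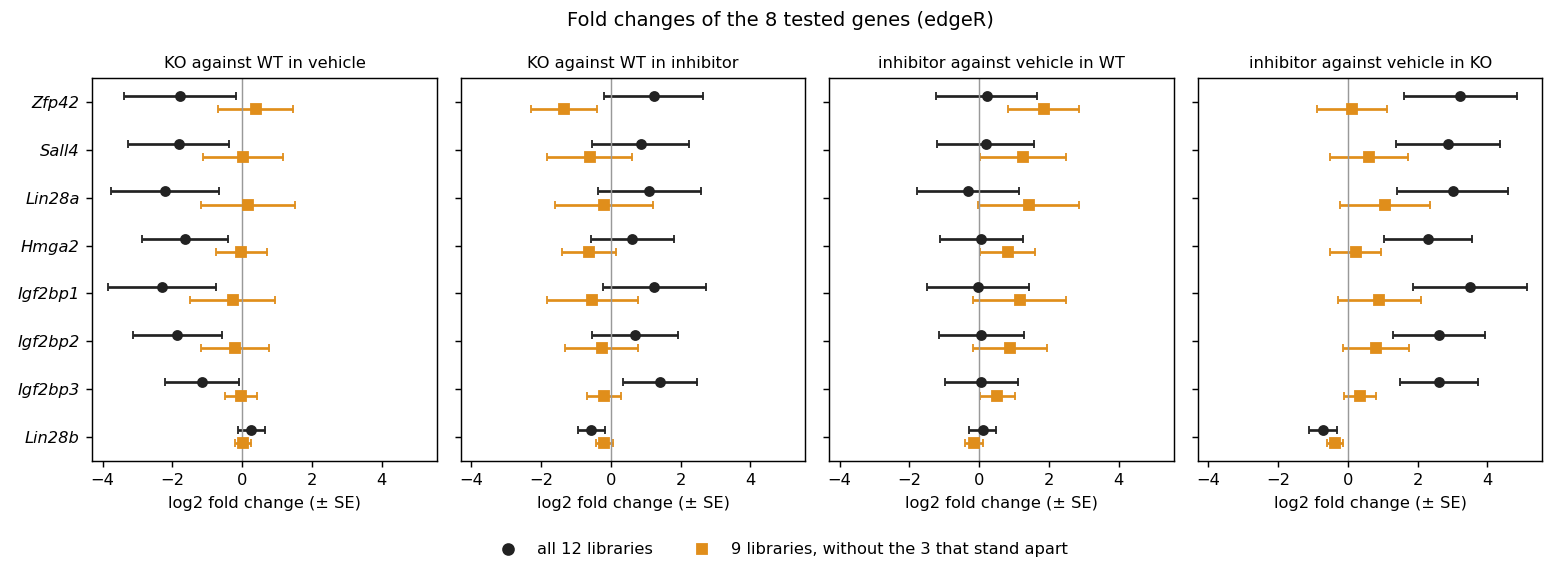
Log2 fold changes with standard errors (x axis) of the 8 tested genes (y axis) in 4 comparisons, from all 12 libraries (black) and from the 9 left without those that stood apart (orange). In vehicle KO against WT the 7 black points left of 0 move to between -0.28 and 0.38, and in KO neurons given inhibitor they move from between 2.31 and 3.50 to between 0.12 and 1.07.

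Of 25 other genes of the pluripotency network, 6 were at or under 3 counts in all 12 libraries, 8 in some and 11 in none, beside 0, 3 and 7 of the 10 genes above. Over all genes, 43.4% were at or under 3 counts in all libraries and 43.1% above it in all. Klf4, Klf5 and Esrrb were the most abundant, with median levels of 3.415, 3.445 and 3.99 cRPKM; all are transcription factors with roles outside pluripotency as well. Of the 12 that were tested, 6 had the 3 libraries that stood apart as their highest and 1, Esrrb, had them as its lowest. Over all tested genes these shares were 22.7% and 13.3%. None was called by edgeR in any comparison; in KO neurons given inhibitor, 3 of 12 were higher at an unadjusted p below 0.05, against 6% of all genes in that direction.

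Genes listed here for let-7 processing were detected throughout where they had values. Dgcr8, of the same list, had no value, so presence of the full machinery that makes let-7 was not shown. The list also holds genes with other roles, such as Trim25 and Trim71, described below. All 11 let-7 processing genes with values were above 3 counts in every library, led by Drosha, which cuts the primary transcript (28.36 to 37.25 cRPKM), Khsrp, a cofactor of that step (26.65 to 33.46), and Ago2, which carries the mature microRNA (10.69 to 24.79). Within this list 2 of 11 genes had the 3 libraries that stood apart as their highest, against 22.7% of all tested genes. They were Trim25, a cofactor of LIN28A, and Trim71, an RNA-binding ubiquitin ligase and let-7 target. Trim25 ran from 0.13 to 21.41 cRPKM and Trim71 from 0.22 to 3.28. The host transcript Mir99ahg stayed between 0.11 and 0.43 cRPKM. None of the 11 was called by edgeR in any comparison.

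Of 19 other let-7 target genes, 13 hold the seed complement in the 3′UTR and 18 were above 3 counts in all libraries. The most abundant was Cdc34, a ubiquitin-conjugating enzyme. In 13 of the 18 the 3 libraries that stood apart were the highest, against 22.7% of all tested genes. Their median log2 differences were -0.33 for KO against WT in vehicle and 0.71 for inhibitor against vehicle in KO. Over all genes these medians were -0.010 and -0.018. In both comparisons the signs were those of the 8 tested genes and the values smaller. For inhibitor against vehicle in WT the median was -0.081, opposite in sign to 0.061 for the 8 genes. Medians without single libraries were not taken for this list, and 0 of 18 were called by edgeR in any comparison.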

How the data were processed

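For each of 12 libraries the authors deposited a table of 36902 genes with Ensembl identifiers, whole-number counts and cRPKM (RPKM in a corrected form), without a header. Per the labels' protocols, libraries were poly(A)-selected and stranded. Per the submitters' processing notes the build was mm10; aligner, annotation and strand use are not given in the sources used here. NA was listed for 3342 genes in all tables. Coordinates and 3′UTRs are GENCODE M21 (GRCm38).

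The deposited counts were tested with edgeR 4.0.16 (R 4.3.3; filterByExpr by group, TMM, robust quasi-likelihood fit, Benjamini-Hochberg adjustment, threshold 0.05). A single model of the 4 groups was fitted to the 12 libraries (15443 genes). For genotype over lines, both libraries of a line were summed (16090 genes). CPM uses TMM factors; levels between genes use the deposited cRPKM. Of the 10 genes, 8 passed the filter; Pou5f1 and Nanog did not. Counts were also simulated with 1 common spread for all genes, taken from the model of the 12 libraries. In the vehicle comparison the test then recovered 4% of genes with a log2 change of 1, 62% at 2, 96% at 3 and 100% at 4. There were 8 false calls among 15301 genes. The 8 tested genes were more variable, with a median SE in vehicle of 1.36 against 0.304 over all genes. These shares therefore do not give the recovery for those 8 genes.

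The members and gene lists were chosen with earlier results of these data known. Named are all members; of each list the 3 most abundant genes, called genes and those in counts of 5 or fewer, except 2 list genes that are not reported here; and the 3 tested genes with the most similar profile to each member. The neuronal markers Slc17a6, Slc17a7, Tbr1, Neurod2, Neurod6 and Tubb3 were named after their values were seen. Alternatives were other scalings, DESeq2 1.42.0, no filter, each library left out, a replicate block and, chosen after seeing the data, leaving out the 3 libraries highest on the first principal component. Vehicle and inhibitor libraries of a line are paired by the labelled line; deviations from group means correlated at 0.532, -0.627 and -0.773 in WT lines and -0.268, 0.587 and -0.422 in KO lines. Between genotypes the shared numbers name different lines; their correlations were -0.407, -0.698 and 0.185 in vehicle and 0.481, 0.737 and 0.828 in inhibitor, where every pair passed 0.1.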

Additional observations from a re-analysis of the deposited data

How the results depend on the processing

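Across all alternatives run, 0 of the 8 tested genes were called in any of the 6 comparisons. Over these alternatives the adjusted p of a member was lowest in KO neurons given inhibitor (0.164, without the KO inhibitor library of line 2). Counts over all genes moved: DESeq2 called 11 genes for KO against WT in vehicle, 18 in inhibitor and 87 over lines, where edgeR called 0; without the 3 libraries that stood apart edgeR called 2, 1 and 2, and without a filter on low counts 2 over lines. The cause was not tested. Without those 3 libraries the KO minus WT log2 difference in vehicle turned to 0.38 for Zfp42, 0.031 for Sall4 and 0.16 for Lin28a. Leaving out 1 library at a time, it ran from -3.06 to 0.36 for Zfp42, -3.04 to 0.023 for Sall4 and -3.80 to 0.15 for Lin28a, positive only without the WT vehicle library of line 2. At a limit of 10 counts, 2 genes were silent. With the replicate block (cell line between treatments, replicate number between genotypes) 0 members and 0 genes were called, so no adjusted call changed, but medians of the tested members moved: from 0.26 to -0.34 for KO against WT over lines, from 0.98 to 0.62 in inhibitor, from 0.061 to 0.64 for inhibitor in WT, from 2.74 to 1.60 in KO and from 2.62 to 1.03 for the interaction. Depth limits Pou5f1, Nanog and Zfp42 in most libraries, and the spread among the 3 libraries of a group limits the others.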

Other observations

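Of 9 other oncofetal genes with values, 8 were above 3 counts in all 12 libraries, and their median levels ran from 0.2 cRPKM for Afp, the yolk sac and fetal liver protein, which was not detected throughout, to 64.91 for Peg10. Igf2, the growth factor whose messenger RNA gave the IGF2BP proteins their name, ran from 3.55 to 244.8 cRPKM, Peg10, an imprinted gene derived from a retrotransposon, from 53.96 to 72.31, and the heparin-binding growth factor Mdk from 3.5 to 224.06. In 5 of the 9 the 3 libraries that stood apart were the highest, against 22.7% of all tested genes. None of the 9 was called by edgeR in any comparison. Among 10 paralogs, Sall2 (11.96 to 33.23 cRPKM), Yy1 (14.75 to 39.92) and Pou3f3 (4.48 to 9.63), which belong to the families of Sall4, Zfp42 and Pou5f1, were the most abundant.

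The tested genes whose profiles over the 12 libraries were most like each member, by the root mean square difference of centred log2(CPM + 0.5) among 13423 candidates, were not the other members. For Lin28a they were Gja1, Mcm3 and Ggta1 (0.106 to 0.155), and for Sall4 Gja1, Eda2r and Ptpn14 (0.164 to 0.174). For Igf2bp1 they were Gcnt1, Hkdc1 and the endoderm factor Gata4 (0.118 to 0.144), for Igf2bp2 Tcn2, Rassf3 and Phldb2 (0.137 to 0.145), for Igf2bp3 Ctnna1, Adgrg6 and Tpm4 (0.111 to 0.139) and for Hmga2 Gcnt2, Stil and Efna4 (0.158 to 0.166). Lin28b was most like Kcnt1, a neuronal potassium channel gene, Tmem25 and A430046D13Rik (0.0904 to 0.120), while its difference from Lin28a was 2.14. Over the other 9 libraries alone, the ranks of these 21 pairs ran from 1 (Gja1 for Lin28a, Ptpn14 for Sall4 and Rassf3 for Igf2bp2) to 59 (A430046D13Rik for Lin28b), and 14 of 21 were 10 or better. Kcnt1 then ranked 30 for Lin28b, Adgrg6 and Tpm4 30 and 38 for Igf2bp3, and Stil 25 for Hmga2. These values are descriptions over libraries that share a total and a mix of cells.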
